A study of Mus musculus with 6 samples.

Results

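The 35 genes described here belong by name to enzyme families that add methyl groups to histone lysines or take them off. Not all 35 are known to do so, as given below for Kmt2e, Setd3 and Kdm8. All 35 were chosen by name from the array's probe-gene table, as every single symbol starting with Kdm, Kmt2, Kmt5 or Setd apart from Kdm5d. This rule uses no measured value but was set with earlier results of these data known. The 35 genes comprise 18 genes of SET-domain proteins (Kmt2, Kmt5 and Setd) and 17 Kdm genes, read by 99 of the 45101 probe sets on the array. A probe set is a group of short probes for 1 transcript region, and each value below is its intensity on a log2 scale.

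Adrenal medulla was microdissected from cryosections of male C57/Bl6 mice that had undergone transverse aortic constriction (TAC), a surgical narrowing of the aorta that raises pressure on the heart, or sham surgery 8 weeks before. There were 3 TAC and 3 sham animals, and each array held RNA from both medullae of 1 mouse after 2 rounds of 3′ amplification. No age of the mice is given in the labels. The tissue label matched its markers, since the 11 chromaffin cell markers tested averaged 11.87 to 12.53 per array.

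Histone lysine methylation marks the state of chromatin. Methylation of H3K4 accompanies active promoters and enhancers, H3K36 methylation the body of transcribed genes, and H3K9, H3K27 and H4K20 methylation compacted or silenced regions. Most lysine methylases carry a SET domain. The demethylases are either flavin-dependent (Kdm1a and Kdm1b) or oxygen- and iron-dependent enzymes with a JmjC domain. Chromaffin cells, the endocrine cells of the adrenal medulla, release adrenaline and noradrenaline.

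In all, 60 of the 99 probe sets, for 32 of the 35 genes, reached log2 4 on at least 3 of the 6 arrays and were tested. Kdm4b, Kdm4d and Kmt5c had no tested probe set. The other 39 probe sets differed between group means by -0.35 to 0.35, with 36 of them under log2 4 on every array.

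Promoter sequence was looked at as a feature that the choice of genes did not use. RefSeq promoters (GRCm38.p6, 250 bases before to 50 after the start) were found for 27 of the 35 genes, 37 in all, and Kmt2e and Kdm6b were not among them. Some genes have more than 1 promoter, and some of these overlap, as in Kdm2b and Setd3, so the 37 are not independent. The GC box GGGCGG, searched on both strands with overlaps counted, occurred in 25 of 37 (67.6%), beside 35.7% of 32851 promoters. The TATA box TATAAA occurred in 0 of 37, beside 13.6%, and the cyclic AMP response element TGACGTCA in 0 of 37, beside 1.79%. The median number of CpG pairs was 27 per promoter, beside 7 over all. The promoters of Kmt2c and Kdm6a are shown because these 2 genes had the smallest p in the comparison with sham among those with an entry. Kmt2c (chr5:25498734-25499033, minus strand) holds 56 CpG pairs and 12 GC boxes, and Kdm6a (chrX:18162325-18162624, plus strand) 21 CpG pairs and 1 GC box. Each is written 5′ to 3′ along the gene, with GC boxes of either strand (GGGCGG or CCGCCC) in capitals.
Kmt2c: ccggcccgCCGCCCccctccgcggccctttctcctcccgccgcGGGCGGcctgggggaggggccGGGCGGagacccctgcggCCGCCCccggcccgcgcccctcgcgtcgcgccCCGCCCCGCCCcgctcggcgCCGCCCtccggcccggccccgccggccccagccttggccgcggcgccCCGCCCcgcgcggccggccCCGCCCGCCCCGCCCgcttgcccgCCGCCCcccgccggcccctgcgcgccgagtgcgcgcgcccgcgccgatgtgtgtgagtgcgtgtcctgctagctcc
Kdm6a: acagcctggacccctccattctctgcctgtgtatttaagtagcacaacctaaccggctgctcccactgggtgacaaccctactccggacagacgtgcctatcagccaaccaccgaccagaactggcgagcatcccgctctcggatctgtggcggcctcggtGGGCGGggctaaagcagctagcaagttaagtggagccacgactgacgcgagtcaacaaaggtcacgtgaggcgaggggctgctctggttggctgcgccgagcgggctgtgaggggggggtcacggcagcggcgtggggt

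No probe set of these genes passed the threshold after adjustment. In limma with Benjamini-Hochberg adjustment, 0 of 60 had an adjusted p under 0.05 (0.00% of all 18188 probe sets tested had one), and the lowest such value was 0.384. Before adjustment, 13 of 60 had a p under 0.05, or 21.7%, beside 6.94% of all probe sets. Of these, 6 lay higher after TAC (10%, beside 4.65%) and 7 lower (11.7%, beside 2.29%), and they belong to 9 genes. All 3 TAC arrays lay above all 3 sham arrays in 8 of 60 (13.3%, beside 9.01% of all probe sets) and below them in 7 (11.7%, beside 4.01%), 15 in all (25%, beside 13.0%). Without TAC 3 the count before adjustment was 6 of 60, beside 3.82% of all probe sets. Without both arrays numbered 1, it was 20 of 60, beside 13.8%. Those arrays had the largest 3′ to 5′ difference of the Gapdh control in their groups. On the arrays left, that difference was still larger after TAC (3.67 and 3.98) than after sham (3.08 and 2.88). The same held for the beta-actin control (4.58 and 5.69 against 3.31 and 3.93), and its part in that count was not tested. With array weights in limma, 32 of 60 passed after adjustment, but so did 36.8% of all probe sets. The weights were 0.40, 0.36 and 6.11 for TAC 1, 2 and 3 and 0.14, 2.73 and 2.96 for sham 1, 2 and 3. The TAC side of that fit thus rested mostly on TAC 3 alone. In tissue RNA such as this, fewer cells of a type and less RNA per cell cannot be told apart.

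**Figure D1:**
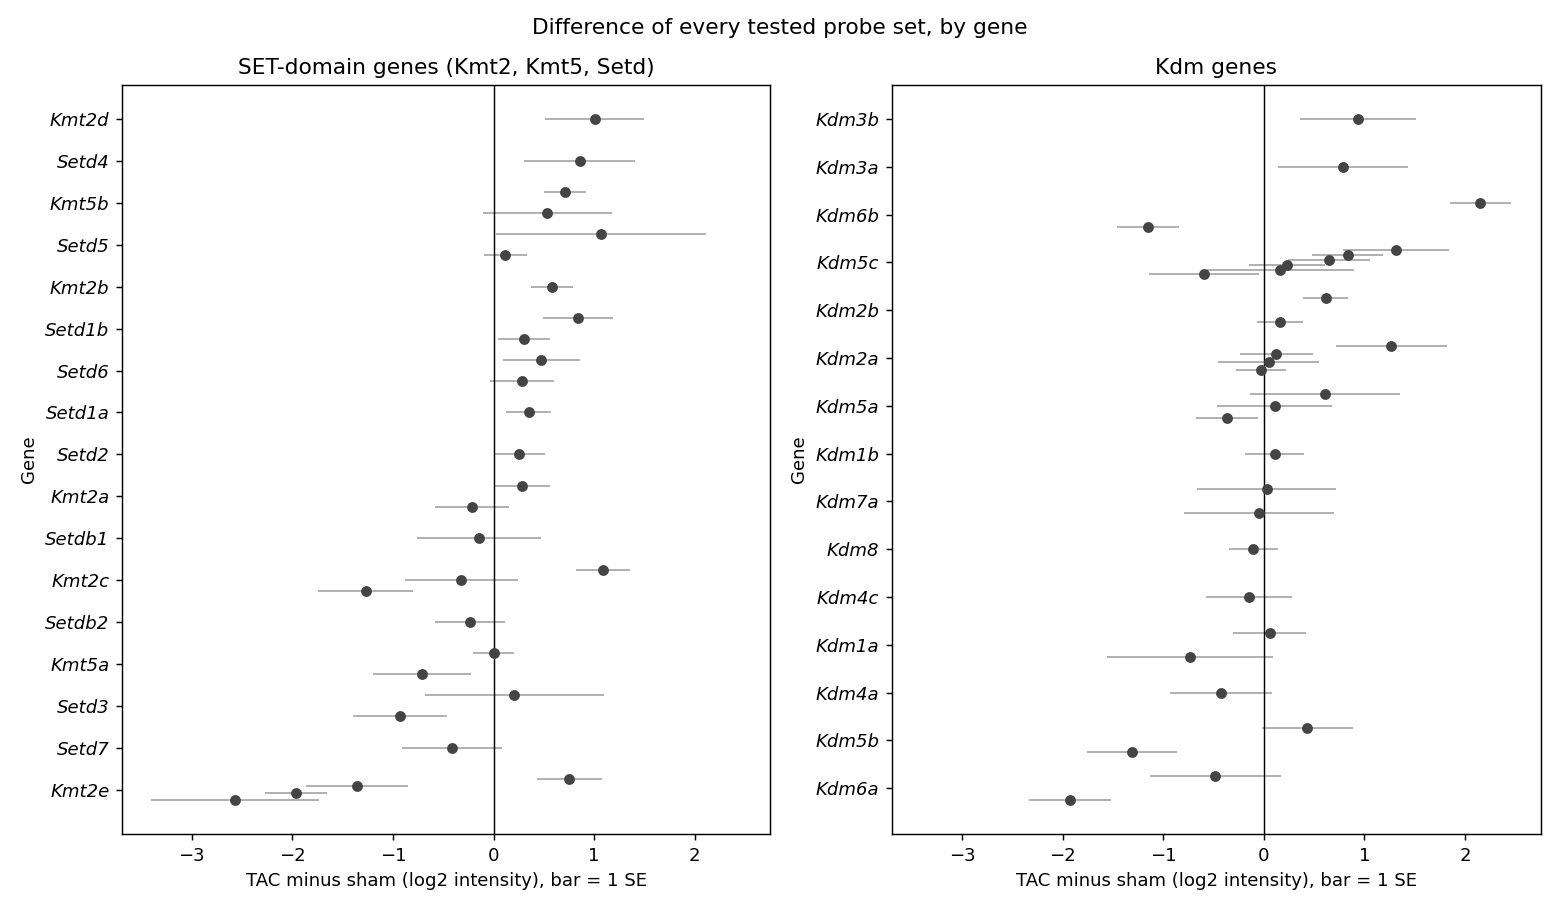
Difference of TAC minus sham (log2 intensity, horizontal axis) for each of the 60 tested probe sets, by gene, with bars of 1 standard error from limma and n = 3 arrays per group. Probe sets of Kmt2e, Kmt2c and Kdm6b lie far apart on either side of 0.

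Disagreement between probe sets of 1 gene was looked at because the rule for these genes asked for it. That rule was set with earlier results of these data known. For Kmt2e, Kmt2c and Kdm6b, 1 probe set was higher in every TAC array than in every sham array while another was lower in every TAC array. This held for 3 of the 18 genes with at least 2 tested probe sets (16.7%), beside 44 of 3647 such genes on the array (1.21%). These 3 were chosen for description after their values were seen, so this share is a description and not support.

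Kmt2e encodes a divergent member of the Kmt2 (MLL) family, which reads methylated H3K4 through a PHD finger and is not known as an active methylase. Its probe set 1439107_a_at measured 5.85, 5.28 and 5.60 in TAC 1, 2 and 3 and 7.98, 7.49 and 7.16 in sham 1, 2 and 3. Every TAC array was thus below every sham array, with means of 5.58 ± 0.29 (SD, n = 3) and 7.54 ± 0.41, a 3.90-fold lower level (difference -1.96 ± 0.31 SE, limma adjusted p = 0.384). Probe set 1439108_at, designed on the same source sequence, measured 6.44, 4.54 and 4.86 against 9.46, 7.23 and 6.85 (difference -2.57 ± 0.83 SE, limma adjusted p = 0.589). Its groups did not overlap either, and array 1 was the highest in both. Probe set 1427236_a_at measured 9.90, 8.43 and 9.24 after TAC and 11.32, 10.17 and 10.16 after sham (TAC minus sham -1.36 ± 0.50 SE, limma adjusted p = 0.681). The fourth, 1434704_at, went the other way, with 10.77, 10.33 and 10.19 in TAC animals and 10.17, 9.52 and 9.33 in sham animals (0.75 ± 0.32 SE, limma adjusted p = 0.729). Its groups were parted only narrowly, TAC 3 lying just above sham 1.

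Kmt2c encodes a methylase that places monomethyl H3K4 at enhancers. Its probe sets 1434179_at and 1434178_at were designed on 1 source sequence and read in opposite directions. The first measured 9.44, 9.83 and 9.24 in TAC 1, 2 and 3 and 8.16, 8.53 and 8.57 in sham 1, 2 and 3, 2.12-fold higher after TAC (difference 1.09 ± 0.27 SE, limma adjusted p = 0.466). The second measured 5.47, 6.64 and 4.95 against 6.64, 7.30 and 6.94 (difference -1.27 ± 0.47 SE, limma adjusted p = 0.682), with TAC 2 just under the lowest sham array. The remaining set, 1427150_at, overlapped between groups (difference -0.32 ± 0.56 SE) and lay at 0.24 without sham 1.

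Kdm6b encodes a demethylase of H3K27, a mark laid down by Polycomb repressive complex 2. Probe set 1447612_x_at measured 9.35, 8.51 and 9.03 after TAC and 7.08, 6.78 and 6.57 after sham, a 4.45-fold higher level (8.97 ± 0.42 against 6.81 ± 0.26 SD, difference 2.15 ± 0.31 SE, limma adjusted p = 0.384). The lowest TAC array exceeded the highest sham array by more than 1 log2 unit. The x in its name marks probes that can bind other transcripts. The gene's other tested probe set, 1456610_at, measured 7.91, 8.20 and 7.73 after TAC and 9.60, 8.96 and 8.73 after sham (TAC minus sham -1.15 ± 0.31 SE, limma adjusted p = 0.508). Here every TAC array was below every sham array.

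**Figure D2:**
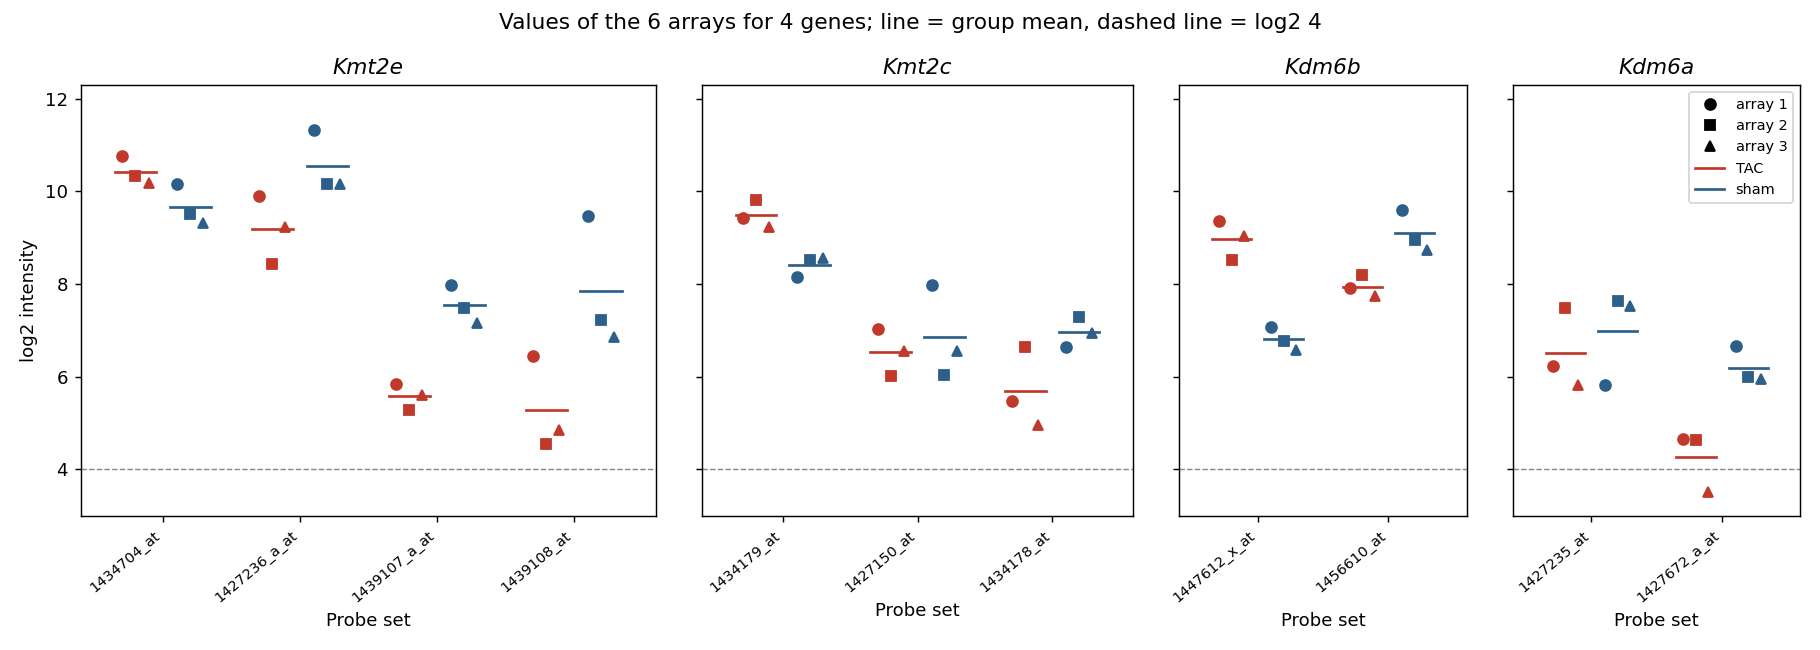
log2 intensity on the 6 arrays (3 TAC, 3 sham; marker shape gives the array number, lines the group means) for the tested probe sets of Kmt2e, Kmt2c, Kdm6b and Kdm6a. Levels of different probe sets cannot be compared with each other, but within Kmt2e, Kmt2c and Kdm6b some sets lie higher and others lower after TAC.

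The gap between 2 probe sets on the same array does not depend on how that array was scaled by a constant. The gap of Kmt2e 1434704_at over 1439107_a_at was 4.91, 5.05 and 4.59 in TAC 1, 2 and 3 and 2.19, 2.03 and 2.17 in sham 1, 2 and 3. The groups were far apart beside their SDs of 0.24 and 0.09. Sham 1, the array with the largest Gapdh 3′ to 5′ difference, lay close to sham 2 and 3 here, but in the gap of 1434704_at over 1439108_at it measured 0.71 against 2.30 and 2.48, and TAC 1 measured 4.33 against 5.79 and 5.33. The gap of Kdm6b 1447612_x_at over 1456610_at was 1.44, 0.32 and 1.30 after TAC and -2.51, -2.18 and -2.16 after sham. That of Kmt2c 1434179_at over 1434178_at was 3.97, 3.19 and 4.29 against 1.51, 1.23 and 1.63. Each of these 3 gaps was higher in every TAC array than in every sham array, and that of Kdm6b changed sign. This direction was fixed by how the 3 genes were picked, so it adds no support of its own.

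A limma fit over the gaps of all 8181 within-gene pairs of probe sets, added after the data were seen, put the change in the Kmt2e gap first of all pairs by p. That change was 2.72 ± 0.27 SE (limma adjusted p = 0.204), and it stayed between 2.62 and 2.85 when any single array was left out. The Kdm6b gap ranked 4 (3.30 ± 0.38 SE, limma adjusted p = 0.204) and the Kmt2c gap 18 (1434178_at minus 1434179_at, -2.36 ± 0.37 SE, limma adjusted p = 0.213). These pairs were picked for their opposite readings in the same values, so their ranks add no support of their own. None of these pairs passed the threshold, nor did any other pair on the array (0 of 8181, 0.00%). Before adjustment, 7 of 46 pairs of the genes described here had a p under 0.05 (15.2%), beside 11.0% of all pairs, and 4 of the 7 included Kmt2e. Without both arrays numbered 1 there were 15, and without TAC 1 there were 11. With no share over all pairs given for these alternatives, such counts cannot be read as particular to these genes.

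**Figure D3:**
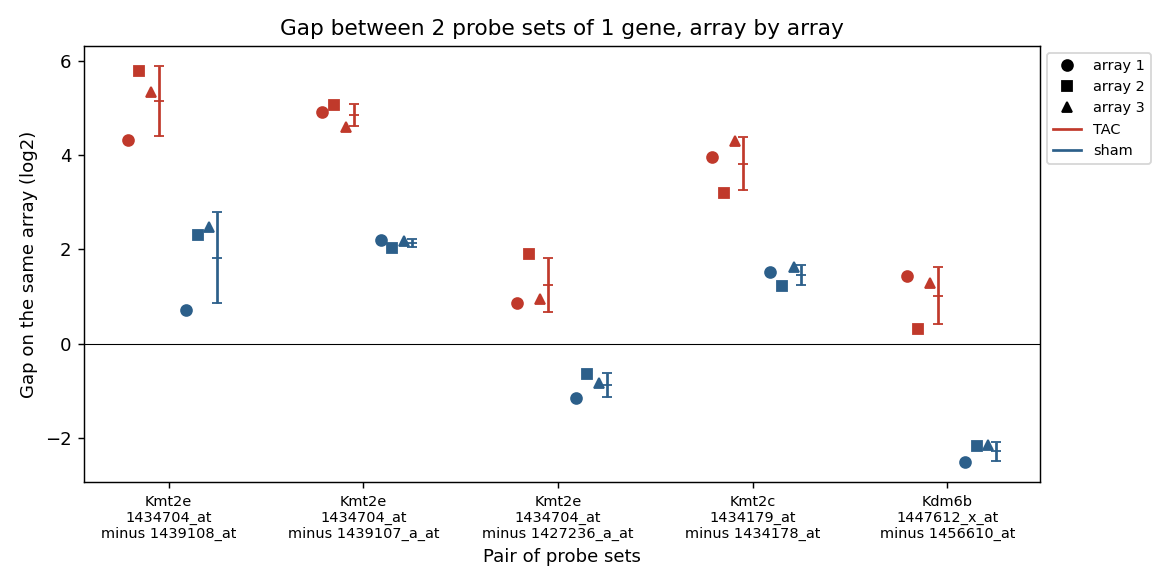
Gap between 2 probe sets of the same gene on the same array (log2, vertical axis) for 5 pairs, with the 3 TAC and 3 sham arrays as points and the mean ± SD beside them. In each pair the TAC and sham arrays do not overlap, which follows from how the 3 genes were picked. Only the change of a gap, not its height, can be read.

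Disagreement between probe sets in general was frequent across the array. Differences of both signs occurred in 11 of the 18 genes (61.1%), beside 55.3% of 3647 genes. In 7 of them (38.9%, beside 18.5%) the opposite readings lay more than 1.0 apart, namely Kmt2e, Kdm6b, Kmt2c, Kdm5c, Kdm5b, Kdm2a and Setd3. The smaller of the opposite readings was within its SE in Kdm5b (0.43 ± 0.45), Kdm2a (-0.02 ± 0.25) and Setd3 (0.21 ± 0.89 SE). In Kdm5c it was -0.59 ± 0.54 SE, by a probe set that reached log2 4 on only 1 TAC array. Their opposition is thus weakly measured. Of 10 pairs of probe sets designed on 1 source sequence, 5 shared their sign (50%, beside 55.9% of 1964 such pairs on the array). Pairs of the same sign were those of Kdm5c (1.32 and 0.83), Kmt2e (-1.96 and -2.57), Kmt5b (0.53 and 0.71), Setd6 (0.47 and 0.28) and Kmt5a (-0.71 and -0.0005). In the Kmt5a pair the second value, with an SE of 0.20, has no clear direction. The opposite pairs were those of Kmt2c and Kdm5b, of Kdm1a (-0.73 and 0.06), Kdm5a (0.61 and -0.36) and Kmt2a (0.28 and -0.22).

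With the probe set of highest mean standing for each gene, SET-domain genes lay higher after TAC in 12 of 17 (median 0.35) and Kdm genes in 8 of 15 (median 0.06). Over all genes tested the median was 0.09, and 58.7% lay higher. The median of the SET-domain genes stayed between 0.25 and 0.53 over all alternatives, and that of the Kdm genes changed sign, reaching -0.16 without sham 1. Of the 32 gene-level differences, 5 (15.6%) had an unadjusted p under 0.05, beside 7.29% of all genes, with Kmt2c, Kmt2b and Kdm2b higher and Kdm6b and Kdm5b lower. Kmt2c and Kdm6b kept an unadjusted limma p under 0.05 under median centring, quantile normalization and cyclic loess. Kmt2b lost it under all 3 (differences of 0.55, 0.54 and 0.49), Kdm2b under centring and loess (0.59 and 0.50), and Kdm5b under centring and quantile normalization (-1.33 and -1.32). Of the 13 probe sets, 9 kept such a p under centring and 10 under each of the other 2. For Kdm6b this standing probe set is 1456610_at, so its direction rests on that choice.

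Among the Kmt2 genes, Setd1a, Setd1b and Setd7, 6 of 8 lay higher (median 0.47), beside 58.7% of all genes. For Kmt2e and Kmt2c, 2 of the 6, this rests on the probe set of highest mean, since other sets of theirs read lower after TAC. Kmt2b, which methylates promoters, measured 7.40, 7.27 and 7.13 after TAC and 6.70, 6.61 and 6.74 after sham (TAC minus sham 0.58 ± 0.21 SE, limma adjusted p = 0.666), without overlap. Kmt2d, the closest relative of Kmt2c and like it an enhancer methylase, measured 10.05, 8.84 and 9.55 against 9.35, 8.12 and 7.96 (difference 1.0 ± 0.50 SE, limma adjusted p = 0.800), with overlap. Setd1a (0.35 ± 0.22 SE) and Setd1b (0.30 ± 0.26 and 0.84 ± 0.35 SE by 2 probe sets), which supply trimethyl H3K4, were also above sham on average. The Setd1a set and the Setd1b set that read 0.84 lay near log2 4, a level that 1 of 3 sham arrays reached in each. Kmt2a, the founding member of the MLL family, read -0.22 ± 0.37 and 0.28 ± 0.28 SE, and Setd7, which also methylates many other proteins, -0.42 ± 0.50 SE.

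The methylases of other histone lysines gave 1 probe set with a p under 0.05 before adjustment. Kmt5b, which adds further methyl groups to singly methylated H4K20, measured 6.83, 7.02 and 6.96 after TAC and 6.25, 6.21 and 6.21 after sham by 1455171_at (difference 0.71 ± 0.21 SE, limma adjusted p = 0.551). The group SDs were 0.10 and 0.02, and its values did not overlap. Its other set, 1434999_at, spread from 6.54 in sham 1 to 9.06 in TAC 2 and differed by 0.53 ± 0.64 SE. Kmt5a, which places the first methyl group there, read 5.38 to 5.43 after TAC and 5.34 to 5.47 after sham by 1460687_at (difference -0.0005 ± 0.20 SE). Setd2, the trimethylase of H3K36, differed by 0.25 ± 0.25 SE, and the H3K9 methylase genes Setdb1 and Setdb2 by -0.14 ± 0.62 and -0.23 ± 0.35 SE.

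Of the remaining SET-domain genes, Setd3, which encodes the histidine methylase of actin, read 0.21 ± 0.89 and -0.93 ± 0.47 SE by 2 probe sets. The first turned to -0.27 without TAC 1. Setd6, whose product methylates the NF-kappaB subunit RelA, read 0.47 ± 0.38 and 0.28 ± 0.32 SE, and Setd4 0.86 ± 0.55 SE. Setd5 read 0.12 ± 0.21 by 1437206_at and 1.07 ± 1.04 SE by 1439515_at, where sham 1 alone measured 3.77 against 6.51 to 8.19 on the other 5 arrays. Without sham 1 that second reading was -0.08.

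Among the demethylases of H3K27, Kdm6a, an X-linked gene, lay on the same side as 1456610_at of Kdm6b. Its probe set 1427672_a_at measured 4.65, 4.65 and 3.52 in TAC 1, 2 and 3 and 6.65, 5.99 and 5.95 in sham 1, 2 and 3 (difference -1.92 ± 0.41 SE, limma adjusted p = 0.420). The groups did not overlap, and TAC 3 lay under log2 4. With such values set to 4 the difference was -1.76. The other set, 1427235_at, ran from 5.83 to 7.48 after TAC and from 5.81 to 7.64 after sham (TAC minus sham -0.48 ± 0.65 SE), and its difference lay between -0.14 (without TAC 3) and -1.07 (without sham 1).

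The H3K4 demethylases of the Kdm5 family read in both directions. Kdm5b measured 5.66, 5.20 and 5.0 after TAC and 7.48, 6.35 and 5.95 after sham by 1427143_at (difference -1.31 ± 0.45 SE, limma adjusted p = 0.626), and -0.86 without sham 1. Its other set 1427142_s_at read 0.43 ± 0.45 SE, with 0.085 without TAC 2 and 0.80 without TAC 1. Kdm5c, X-linked as well, had 6 tested probe sets, of which 5 were higher after TAC. Its largest reading was 1444157_a_at, at 7.34, 8.89 and 8.34 against 6.13, 6.99 and 7.49 (difference 1.32 ± 0.53 SE, limma adjusted p = 0.706). There the groups overlapped between TAC 1 and sham 3. The others read 0.83, 0.65, 0.23, 0.17 and -0.59, the last of these -0.042 without sham 1. That last set reached log2 4 on only 1 TAC array. Kdm5a read 0.61, 0.11 and -0.36. The flavin-dependent H3K4 demethylase genes Kdm1a (LSD1; 0.06 ± 0.36 and -0.73 ± 0.82 SE) and Kdm1b (0.11 ± 0.29 SE) differed by less than their SE.

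The H3K36 demethylase gene Kdm2b measured 9.77, 10.03 and 9.68 after TAC and 9.05, 9.26 and 9.32 after sham by 1459861_s_at, without overlap (difference 0.62 ± 0.23 SE, limma adjusted p = 0.675). The gene's second tested set read 0.16 ± 0.23 SE. Kdm2a measured 6.03, 6.33 and 6.14 against 3.64, 5.63 and 5.43 by 1435329_at (difference 1.27 ± 0.55 SE, limma adjusted p = 0.734). That difference was 0.64 without sham 1, the lowest array, and 3 further sets read 0.13, 0.05 and -0.02. The H3K9 demethylase genes Kdm3a and Kdm3b differed by 0.79 ± 0.65 and 0.94 ± 0.58 SE and Kdm7a by -0.04 ± 0.75 and 0.03 ± 0.69. Kdm4a and Kdm4c, which act on H3K9 and H3K36, differed by -0.42 ± 0.51 and -0.15 ± 0.43 SE, and Kdm4a by -0.073 without sham 2 and -0.85 without sham 1. Kdm8, a JmjC gene whose action on histones is disputed, differed by -0.10 ± 0.24 SE.

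The complexes in which these enzymes work gave no gene past the threshold. Of 72 genes in 6 such lists, 58 were tested, with 35 higher, 23 lower and 0 past an adjusted p of 0.05. Before adjustment, 5 had a p under 0.05, all 5 higher after TAC (8.62%, beside 7.29% of all genes). COMPASS subunits, the partners of Kmt2 and Setd1 enzymes, and further genes listed with them lay higher in 9 of 14 (median 0.14). Among these 14 were Ncoa6 at 0.80 ± 0.30 and the core subunit gene Wdr5 at 0.74 ± 0.30 SE (limma adjusted p = 0.682 and 0.708). In Polycomb repressive complex 2, the H3K27 methylase, 7 of 10 lay higher (median 0.09), with the histone-binding subunit gene Rbbp4 at 0.66 (its other set at -1.33) and the core subunit gene Suz12 at -0.73 (-0.98). Other lysine methylase genes lay higher in 8 of 12 (median 0.16), among them Smyd2 at 0.76 and the H3K9 methylase gene Ehmt1 at 0.44. Further JmjC genes lay higher in 3 of 7 (median -0.08), with Phf2 at 0.31 and Jmjd6 at -0.25, and partners of LSD1 in 3 of 9 (median -0.10), with Zmym3 at 0.75 (0.15) and the deacetylase gene Hdac2 at -0.33 (-1.15). Proteins tied to H3K9 methylation lay higher in 5 of 6 (median 0.31), with the corepressor gene Trim28 at 0.65 (0.56) and Cdyl at 0.79 (0.13). Only this last median kept its sign under all alternatives run, at 0.097 with probe sets averaged per gene. The median of the JmjC list was 0.098 without TAC 1, 0.085 without TAC 3 and 0.11 without sham 2, and that of the LSD1 partners 0.10 without TAC 1. With array weights the COMPASS median was -0.099 and the Polycomb median -0.13 (-0.047 without TAC 2), and the median of other methylases was -0.042 without sham 1.

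Markers of other cells and of RNA quality were followed on the same arrays. The Gapdh 3′ minus 5′ difference was 4.71, 3.67 and 3.98 in TAC 1, 2 and 3 and 5.15, 3.08 and 2.88 in sham 1, 2 and 3 (exact permutation test, p = 0.6). Fibroblast markers, all 7 above the filter, lay lower in 6 of 7 (median -1.40), averaging 6.12 to 7.41 after TAC and 7.05 to 8.51 after sham (exact permutation test, p = 0.2), and 4 of the 7 had an unadjusted limma p under 0.05. Sustentacular and Schwann cell markers, 5 of 7 tested, lay higher in 4 of 5 (median 0.26), averaging 7.76 to 8.41 and 7.65 to 7.89 (exact permutation test, p = 0.3), with 2 at such a p. Neuron markers lay lower in 5 of 6 (median -0.48), averaging 5.56 to 6.45 and 6.12 to 6.70 (exact permutation test, p = 0.3). Of these 6, 2 had an unadjusted limma p under 0.05, as did 7.29% of all genes. Cortex markers, 6 of 10 tested, averaged 6.30 to 9.57 after TAC and 6.41 to 10.97 after sham (exact permutation test, p = 0.9). With 3 against 3 arrays no such p can fall below 0.1. The part of these cells and of RNA quality in the differences above was not tested.

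**Figure D4:**
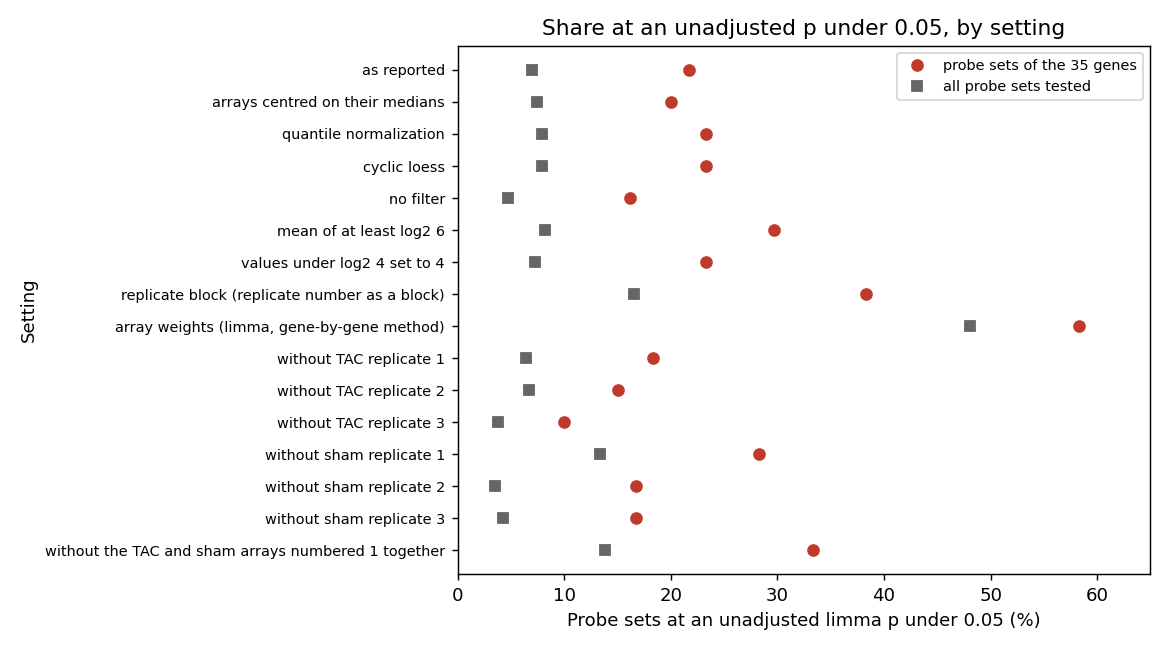
Share of probe sets at an unadjusted limma p under 0.05 (%, horizontal axis) under each setting (vertical axis), for the probe sets of the 35 genes and for all probe sets tested. The share is 21.7% against 6.94% as reported and 10% against 3.82% without TAC 3, and both shares rise with array weights.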

How the data were processed

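The deposited table gives 1 linear, background-corrected intensity per probe set and array. Per the submitters' processing notes the authors used GCRMA, of which no version or options are stated. The deposited intensities were log2-transformed without further scaling; array medians over the tested probe sets ran from 6.31 to 7.01, so the arrays do not share 1 distribution. Of 45101 probe sets, 64 controls were left out; the platform annotation gave 1 symbol to 34945 of the others, several to 932 and none to 9160. RefSeq held all 35 genes.

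The 18188 probe sets that reached log2 4 on 3 or more of the 6 arrays were fitted with limma 3.58.1 in R 4.3.3 (TAC against sham, no covariate, 4 residual degrees of freedom), with Benjamini-Hochberg adjustment over all of them and a threshold of 0.05. The fit was also run on simulated data with noise drawn independently for each probe set and array. That run does not bear on deviations that probe sets of 1 array share. Array measures were compared with exact 2-sided permutation tests (scipy 1.17.1). Precision is limited by having 3 arrays a group (median SE 0.39).

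The rule for the genes uses no measured value, but it and the lists were chosen with earlier results of these data known. Text names were set by rule: every probe set at an unadjusted p under 0.05, genes with opposite readings over 1.0 apart, the 4 highest and 4 lowest gene-level differences, and 2 genes per pathway list by p. Remaining genes are given by their values. Alternatives were scaling, filters, a floor, array weights, a replicate block and leaving out arrays.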

Additional observations from a re-analysis of the deposited data

Results flagged for a closer look

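One probe set outside the choice of genes, 1440346_at, carries 2 symbols in the platform annotation, Kdm6b and 1700064E03Rik, so it names neither gene. It measured 7.86, 8.52 and 9.05 in TAC 1, 2 and 3 and 6.23, 7.16 and 7.34 in sham 1, 2 and 3, a difference of 1.57 ± 0.44 SE (limma adjusted p = 0.526). It drew attention as a signal outside the comparisons above, since all TAC arrays lay above all sham arrays. Of the probe sets that carry Kdm6b alone, 1447612_x_at read 2.15 and 1456610_at -1.15.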

How the results depend on the processing

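No probe set of these genes passed after adjustment under any alternative except array weights. There 32 of 60 passed, beside 36.8% of all probe sets, and 23 pairs. Array weights moved the count at an unadjusted p under 0.05 from 13 to 35 (58.3%, beside 48.1% of all probe sets). That of pairs moved from 7 to 27. No share over all pairs is given here for the alternatives, so these pair counts cannot be read as particular to these genes. Whether the replicate numbers pair the arrays is unclear. Deviations of same-numbered arrays correlated at 0.76, 0.78 and -0.22, and TAC 2 also correlated with sham 3 at 0.71. With the replicate block the counts were 23 probe sets (38.3%, beside 16.5% of all) and 19 pairs, and no call after adjustment changed. Leaving out 1 array gave 6 probe sets without TAC 3 (10%, beside 3.82% of all) to 17 without sham 1 (28.3%, beside 13.4%). It also gave 5 to 11 pairs and 8 to 10 genes with both signs. Leaving out both arrays numbered 1, an alternative chosen after seeing the data, gave 20 probe sets (33.3%, beside 13.8%) and 15 pairs. Genes with both signs numbered 17 without a filter and 6 with a mean of at least log2 6. The changes of these counts follow from fewer or more probe sets for the filters; for the others the cause was not tested.

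Of 454 comparisons of 31 named probe sets with an alternative, 26 changed sign and 22 passed the threshold, all 22 with array weights. With those weights 36.8% of all probe sets passed. Leaving out 1 array, Setd3 1440163_at ranged from -0.27 to 0.98, Setd5 1439515_at from -0.082 to 1.71, and Kdm2a 1438890_at, 1443336_at and 1455942_at from -0.41 to 0.56, -0.20 to 0.36 and -0.17 to 0.14. Kdm5c 1435348_at ranged from -0.15 to 0.51, Kdm5c 1441449_at from -0.46 to 0.74 and Kmt2c 1427150_at from -0.73 to 0.24. With array weights Setd5 1439515_at was -0.35, Kdm2a 1455942_at 0.13, Kdm5c 1435348_at -0.23 and Kmt2c 1427150_at 0.22. Kdm2a 1438890_at was -0.009 after quantile normalization and -0.004 after cyclic loess, and 1455942_at 0.005 after quantile normalization. Without both arrays numbered 1, Kdm2a 1443336_at was -0.035, 1455942_at 0.11 and Kdm5c 1435348_at -0.21. Probe sets near log2 4 carry little signal over background, which limits some sets of Kdm2a, Kdm5c, Kdm6a, Setd1a and Setd1b.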
